A study of Mus musculus with 9 samples.

Results

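The cytosolic heat shock proteins and HSF1, the transcription factor that switches on their genes, were followed by mRNA level in *Atf4* null and wildtype mouse lenses at E16.5. The set held 10 of the 55416 genes in the count tables, chosen by gene symbol: *Hsf1*, *Hspa1a*, *Hspa1b*, *Dnajb1*, *Hspa8*, *Hsph1*, *Hsp90aa1*, *Hsp90ab1*, *Hspb1* and *Hspb8*. All 10 were found and all 10 had enough counts to be tested. RNA came from 1 pair of whole lenses per embryo, with 4 *Atf4* null and 5 wildtype embryos. Null embryos were homozygous throughout the body, not only in the lens, for the Atf4tm1Tow allele, in which a neomycin cassette takes the place of exons 3 and 4. The wildtype embryos were littermates from matings of heterozygotes on a mixed C57Bl/6 and 129 background, and both sexes were used. The question addressed was what the embryonic lens needs ATF4 for, and in these 10 genes it becomes whether the cytosolic chaperone system differed in its mRNA when ATF4 was absent.

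ATF4 is the transcription factor made when the integrated stress response slows protein synthesis. The heat shock response is a separate pathway. In resting cells HSF1 is held inactive by the chaperones HSP70 and HSP90, and misfolded protein in the cytosol draws these away, so that HSF1 assembles into trimers, enters the nucleus and binds heat shock elements, which are runs of the unit GAA in alternating orientation. Its best known target genes include *Hspa1a*, *Hspa1b*, *Dnajb1*, *Hsph1*, *Hsp90aa1* and *Hspb1*, while *Hspa8* and *Hsp90ab1* are made constantly in most cells. In the lens, whose fiber cells keep their proteins for life, the α-crystallins are themselves small heat shock proteins and HSF4 is the better known member of the HSF family.

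Gene counts lay between 7440807 and 8906996 per library. Levels are given as CPM, counts scaled to a common library size with edgeR's TMM factors. The genotypes were set against each other by the quasi-likelihood test of edgeR, with Benjamini-Hochberg adjustment over 14903 genes, a gene being called at an adjusted p below 0.05. Of all genes tested, 5.9% were called, 2.23% as higher and 3.67% as lower in the *Atf4* null lens. *Atf4* itself lay between 0.582 and 10.6 CPM in the null and between 119 and 155 CPM in the wildtype libraries. All 12 genes of a lens epithelium list had counts in every library, with a summed share of 0.163% to 0.339% in the null and 0.248% to 0.299% in the wildtype libraries. Of the 12, 6 were called lower, 1 higher (*Ccnd1*) and 5 not. *Cdh1*, which encodes E-cadherin, was among the lower ones, at 13.9 ± 6.42 (SD, n = 4) against 178 ± 29.2 CPM (SD, n = 5). A lens fiber list of 12 genes took 2.71% to 5.17% of the counts in the null and 3.26% to 5.44% in the wildtype libraries. Of these, the gene identifier matched to *Lim2* had 0 counts in all 9 libraries, and *Lgsn* had 0 in the 4 null and 1 of the 5 wildtype libraries. The other 11 could be tested, *Lgsn* among them, and 5 of the 11 were called lower and 0 higher. Wildtype replicate 5 stood apart: 20 skeletal muscle and mesenchyme genes took 2.52% of its counts, against 0.0304% to 0.0682% in the other 8 libraries. All 9 genes of a retina list were detected in every library, with a summed share of 0.0221% to 0.0774% in the null and 0.0117% to 0.0214% in the wildtype libraries, which did not overlap. The part these other tissues play in the values below was not tested. In RNA from whole lenses, fewer cells of a type and less RNA per cell cannot be told apart.

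Of the 10 genes, *Hsp90aa1* and *Hsph1* were called higher in the *Atf4* null lens and 0 were called lower by edgeR's quasi-likelihood test, against the 2.23% and 3.67% of all genes tested. At an unadjusted p below 0.05 there were 4 genes, these and *Hspa8* and *Hspb1*, and DESeq2 called all 4, *Hspb1* as lower. Of all genes tested, 19.6% had an unadjusted p below 0.05 and 9.37% were called by DESeq2, and the share called was 7.11% with edgeR's exactTest, 8.25% with library sizes in place of TMM factors and 3.87% with no filter on low counts. The 2 genotypes did not overlap in CPM for 4 of them, *Hsp90aa1*, *Hsph1*, *Hspa8* and *Hspb1*, against 10.2% of all genes tested. By the fitted log2 fold change, 5 were higher and 5 lower, with a median of 0.20 beside 0.000716 over all genes tested. The fitted differences thus ran in both directions, and 2 of the 6 HSF1 targets named above were called. The 10 genes together took 0.861% to 0.896% of the gene counts in the null and 0.624% to 0.768% in the wildtype libraries. Between 95.8% and 96.7% of these counts lay on *Hsp90ab1*, *Hspa8* and *Hsp90aa1*, so the summed share says little of the other 7. These shares are of raw gene counts, without the TMM factors used for CPM. Library sizes alone moved the median log2 fold change of all genes to 0.125. In CPM *Hsp90ab1*, the highest of the 10, overlapped between genotypes, at 4199 to 5369 in the null and 3767 to 5283 in the wildtype libraries. Whether the summed level differed in CPM was not tested.

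**Figure D1:**
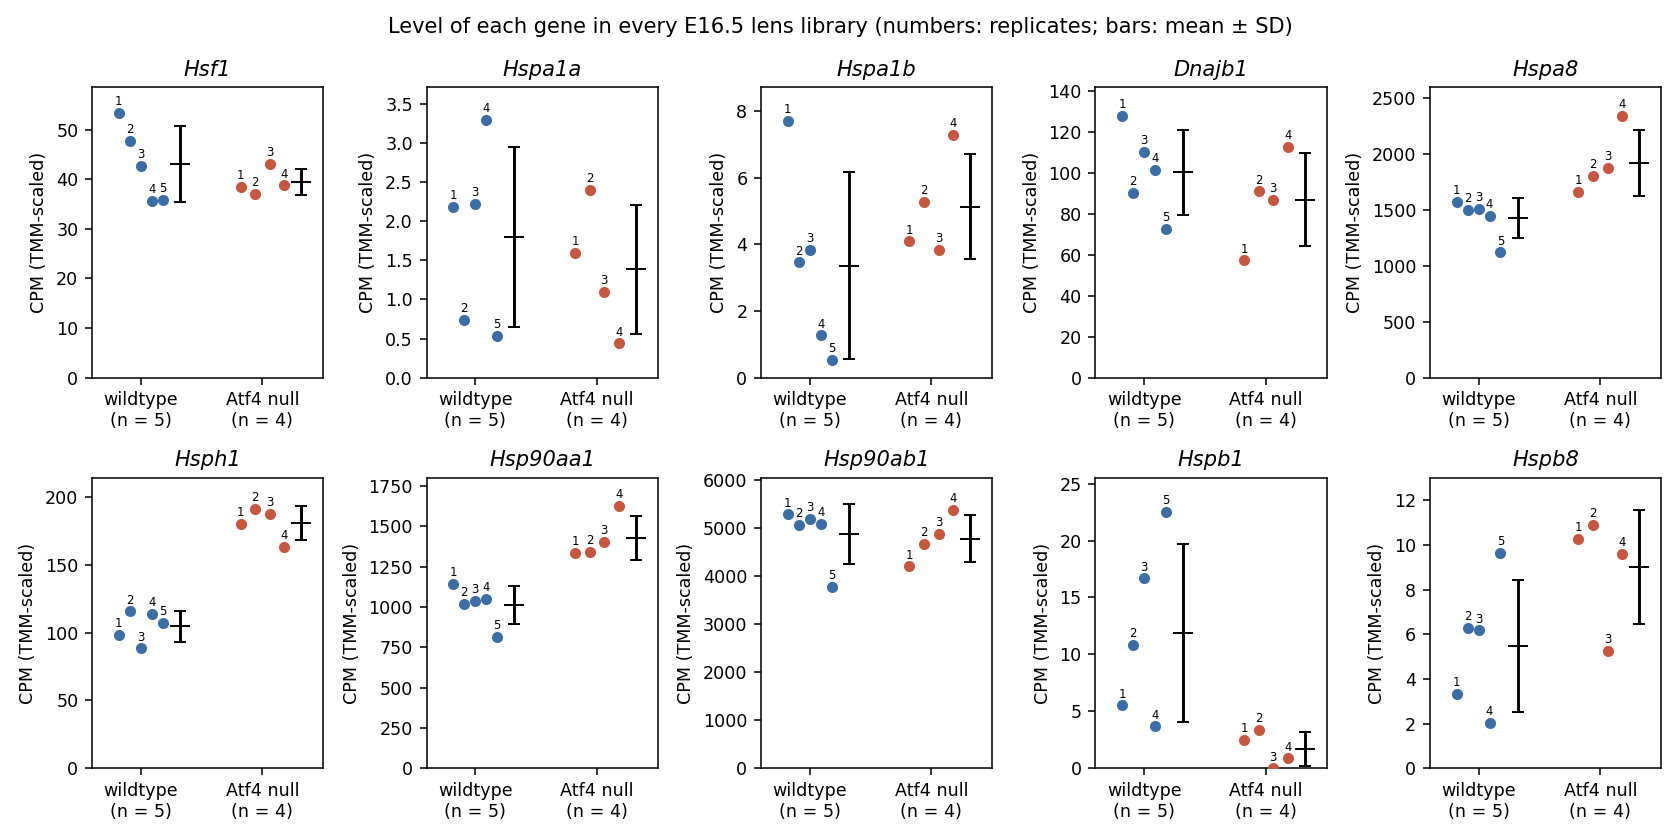
CPM of each of the 10 genes in every library (vertical axes from 0, 1 panel per gene), with wildtype in blue, *Atf4* null in red, replicate numbers beside the points and bars for the mean and SD. The 4 null points lie above all 5 wildtype points for *Hsph1*, *Hsp90aa1* and *Hspa8* and below them for *Hspb1*, and the genotypes overlap in the other 6 panels.

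Some of these genes have near-identical copies in the genome, which limits how their reads can be assigned. *Hspa1a* (ENSMUSG00000091971, GRCm39 chr17:35188166-35191132, minus strand) and *Hspa1b* (ENSMUSG00000090877, chr17:35175412-35178214, minus strand) each consist of 1 exon and encode the stress-inducible HSP70. *Hspa8* (ENSMUSG00000015656, chr9:40711630-40731039, plus strand, 9 exons) encodes the constitutive HSP70, also called HSC70. The first 60 coding bases of the 3 genes, which begin with the start codon, are shown to make the difference visible, with capitals at bases that differ from *Hspa1a*.
Hspa1a: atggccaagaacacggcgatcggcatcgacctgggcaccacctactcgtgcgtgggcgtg
Hspa1b: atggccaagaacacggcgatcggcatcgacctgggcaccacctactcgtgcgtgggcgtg
Hspa8: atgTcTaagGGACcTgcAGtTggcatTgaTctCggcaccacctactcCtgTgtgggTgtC
In this stretch *Hspa1b* was identical to *Hspa1a* and *Hspa8* differed at 17 bases. Over the whole coding sequence, *Hspa1a* and *Hspa1b* shared 1918 of 1929 aligned bases (99.4%) and 641 of 642 encoded residues. *Hspa8* shared 74.1% of bases and 84.4% of residues with *Hspa1a*. The HSP90 genes *Hsp90aa1* and *Hsp90ab1* shared 75.7% of bases and 85.7% of residues, enough difference for most reads to be told apart between them. Of the 75-base windows of the canonical transcript, 54.2% of those of *Hspa1a*, 55.8% of *Hspa1b*, 69.4% of *Hspa8*, 65.7% of *Hspb1* and 62.2% of *Hsp90aa1* occurred elsewhere in the genome, against 1.37% for *Hsp90ab1* and 0 for *Hsf1*, *Hspb8*, *Hsph1* and *Dnajb1*. Reads with more than 1 alignment were not counted, so the levels of the former 5 genes may be underestimates. The extent depends on the length of the reads and was not measured.

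The sequence just before the start of the canonical transcript (GRCm39, gene strand, 150 bases) is given for *Hspa1a* and *Hspa1b*, which are the classical HSF1 targets, and for *Hspb1* and *Hsph1*, which had the largest fitted differences in each direction. Capitals mark a pair of GAA units facing each other (GAANNTTC) or facing apart (TTCNNGAA).
Hspa1a, chr17:35191133-35191282: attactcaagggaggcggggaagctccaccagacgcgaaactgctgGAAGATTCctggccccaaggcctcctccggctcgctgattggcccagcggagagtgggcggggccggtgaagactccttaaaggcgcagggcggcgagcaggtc
Hspa1b, chr17:35178215-35178364: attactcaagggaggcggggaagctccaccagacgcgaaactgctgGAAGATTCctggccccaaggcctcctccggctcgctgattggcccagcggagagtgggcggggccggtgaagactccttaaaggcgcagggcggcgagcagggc
Hspb1, chr5:135916610-135916759: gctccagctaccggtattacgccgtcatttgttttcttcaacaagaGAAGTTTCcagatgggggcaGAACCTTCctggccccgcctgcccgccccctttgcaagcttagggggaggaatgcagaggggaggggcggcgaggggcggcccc
Hsph1, chr5:149559807-149559956: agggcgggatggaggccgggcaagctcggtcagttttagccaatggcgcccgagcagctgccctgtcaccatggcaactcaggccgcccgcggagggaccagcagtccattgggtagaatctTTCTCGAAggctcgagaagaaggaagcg
In windows of 300 bases, 250 before and 50 from the start, GAANNTTC occurred in *Hspa1a*, *Hspa1b*, *Hspb1* and *Dnajb1* and in 7.41% of the promoters of 21770 protein-coding genes. TTCNNGAA occurred in *Hsph1* alone of the 10 and in 7.98% of promoters. Both motifs read the same on either strand. The first began at position -104 in *Hspa1a* and in *Hspa1b*, at -104 and -84 in *Hspb1* and at 28 after the start in *Dnajb1*, and the other at -28 and 41 in *Hsph1*. An exact run of 3 alternating units with 2 free bases between them, which contains both pairs, occurred in 0.478% of promoters and in none of the 10. The exact sequence TGATGCAA, 1 form of the ATF4 element, was searched on both strands. It occurred in 0.992% of promoters and in none of the 10 windows. Variants of it were not searched, so this does not show that ATF4 sites are absent. Over the 12851 of these promoters whose genes were tested, the shares were 5.98% for GAANNTTC and 7.07% for TTCNNGAA. They were 0.459% for the run of 3 units and 0.521% for TGATGCAA. Such matches are descriptions of these windows only.

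*Hsf1* (ENSMUSG00000022556, chr15:76361558-76388138, plus strand, 13 exons) stood at 38.5, 37.1, 43.1 and 38.7 CPM in *Atf4* null replicates 1 to 4 and at 53.3, 47.8, 42.6, 35.6 and 35.8 CPM in wildtype replicates 1 to 5. The null values fell inside the wildtype range. The means were 39.3 ± 2.6 (SD, n = 4) and 43.0 ± 7.68 (SD, n = 5), with a log2 fold change of -0.13 (SE 0.16, 95% interval -0.47 to 0.22, edgeR adjusted p = 0.741). An exact two-sided permutation test of genotype labels gave p = 0.452. HSF1 is controlled mainly as a protein, so its mRNA gives its amount of message and not its activity. *Hsf1* overlaps *Bop1* and *Dgat1* on the opposite strand, and the strand setting of the counting is not given in the sources used here.

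The inducible HSP70 genes were among the lowest of the set. *Hspa1b* had 41, 44, 35 and 50 counts in the null and 60, 28, 31, 10 and 5 counts in the wildtype libraries, or 4.09, 5.28, 3.84 and 7.28 CPM against 7.70, 3.46, 3.83, 1.27 and 0.535 CPM. Wildtype replicate 1 was the highest and wildtype replicates 4 and 5 the lowest of all 9, so the groups overlapped. The log2 fold change was 0.61 (SE 0.63, 95% interval -0.75 to 1.97, edgeR adjusted p = 0.671), and it ran from 0.34 without wildtype replicate 5 to 1.17 without wildtype replicate 1, never called. *Hspa1a* had 16, 20, 10 and 3 counts in the null and 17, 6, 18, 26 and 5 in the wildtype libraries, with a log2 fold change of -0.36 (SE 0.75, 95% interval -1.98 to 1.26, edgeR adjusted p = 0.857). With the counts of both genes added, the log2 fold change was 0.34 (SE 0.50, edgeR adjusted p = 0.792). At this depth a change of less than about 2.39-fold up or to 0.253 of the wildtype level would lie inside the interval for *Hspa1a*, so no difference was detectable rather than shown to be absent.

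*Dnajb1* (ENSMUSG00000005483, chr8:84334811-84339820, plus strand, 3 exons) encodes the J-domain protein HSP40, which delivers clients to HSP70 and stimulates its ATPase. It stood at 57.3, 90.9, 86.8 and 113 CPM in the null and at 128, 90.1, 110.1, 101 and 72.5 CPM in the wildtype libraries. The groups overlapped widely, with null replicate 1 the lowest and wildtype replicate 1 the highest. The means were 86.9 ± 22.7 (SD, n = 4) and 100.3 ± 20.8 (SD, n = 5), with a log2 fold change of -0.21 (SE 0.19, 95% interval -0.62 to 0.21, edgeR adjusted p = 0.632).

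*Hspa8*, which folds new proteins and uncoats clathrin vesicles, stood at 1660, 1800, 1876 and 2341 CPM in the null and at 1571, 1498, 1505, 1446 and 1119 CPM in the wildtype libraries. Every null value lay above every wildtype value, though null replicate 1 and wildtype replicate 1 were close. The means were 1919 ± 295 (SD, n = 4) and 1428 ± 178 (SD, n = 5), a log2 fold change of 0.43 (SE 0.13, 95% interval 0.14 to 0.72), or 1.34-fold. The edgeR test gave p = 0.00709 and an adjusted p of 0.0867, which misses the threshold, and the exact two-sided permutation test gave p = 0.0079, the smallest it can give here. DESeq2 called the same difference (log2 fold change 0.43, adjusted p = 0.0178), as did edgeR with library sizes in place of TMM factors (0.54, adjusted p = 0.00264) and edgeR without null replicate 1 (0.50, adjusted p = 0.0469). Without wildtype replicate 5, the lowest of the 9 libraries, it was 0.36 (adjusted p = 0.0791).

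Reads very like those of *Hspa8* were also counted at another place. *Gm15459* (ENSMUSG00000100801, chr5:5831615-5833555, minus strand) is annotated as a processed pseudogene, a copy made from a spliced mRNA, and shares 64.3% of the 75-base windows of *Hspa8*. It was counted at 820, 939, 967 and 1264 CPM in the null and at 849.7, 725, 737, 769 and 584 CPM in the wildtype libraries, so null replicate 1 lay below wildtype replicate 1. It took between 32.6% and 35.1% of the counts of the pair in every library, with no separation of the genotypes. The log2 fold change of *Gm15459* was 0.44 (SE 0.14, edgeR adjusted p = 0.0965), close to that of *Hspa8*. With both counted as 1 gene, a sum chosen after the values had been seen, the level was 2917 ± 483 (SD, n = 4) in the null and 2161 ± 269.8 CPM (SD, n = 5) in the wildtype lens, with a log2 fold change of 0.43 (SE 0.14, edgeR adjusted p = 0.0871). The counts do not tell whether reads at *Gm15459* came from *Hspa8* mRNA.

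**Figure D2:**
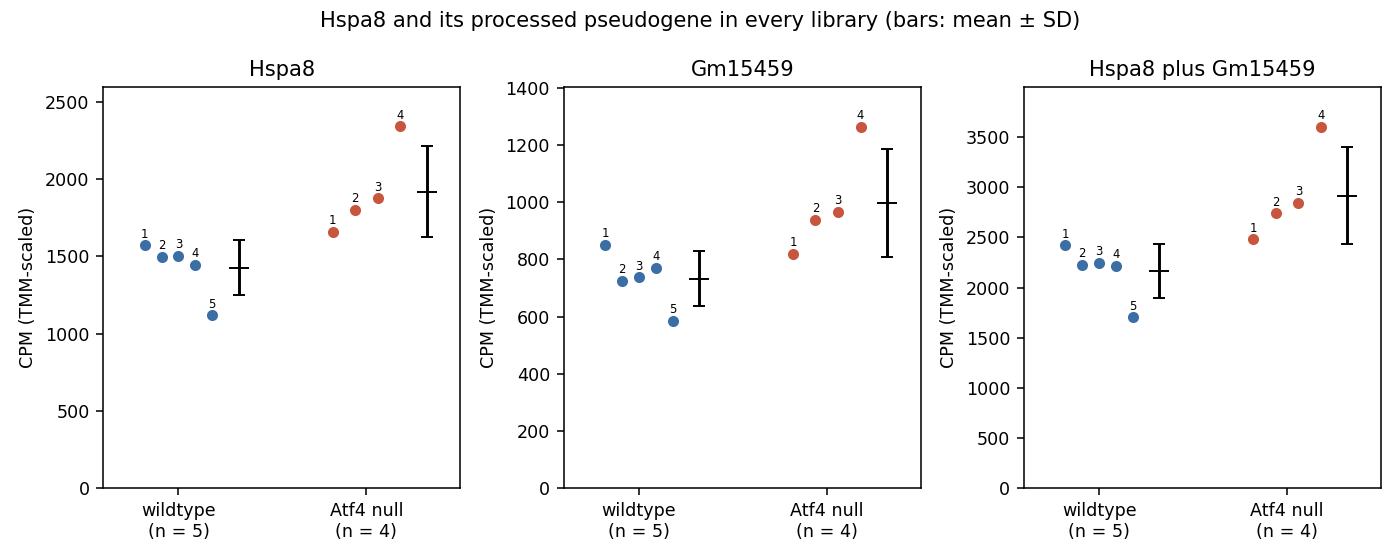
CPM of *Hspa8*, of its processed pseudogene *Gm15459* and of their sum in every library (vertical axes from 0, replicate numbers beside the points, bars for mean and SD). Null replicate 4 is the highest and wildtype replicate 5 the lowest in all 3 panels, and the genotypes overlap only for *Gm15459*, where null replicate 1 (820 CPM) lies below wildtype replicate 1.

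*Hsph1* (ENSMUSG00000029657, chr5:149537636-149560156, minus strand, 18 exons) showed the clearest difference of the set. It encodes HSP110, the nucleotide exchange factor of HSP70 that also works with it to pull apart aggregated protein. *Hsph1* stood at 180.1, 191, 187 and 163 CPM in the null and at 98.3, 116, 88.3, 114 and 107 CPM in the wildtype libraries. The lowest null library, replicate 4, was well above the highest wildtype library, replicate 2. The means were 180.4 ± 12.4 (SD, n = 4) and 105 ± 11.3 (SD, n = 5), a 1.73-fold rise with a 95% interval of 1.46- to 2.04-fold (log2 fold change 0.79, SE 0.11, edgeR adjusted p = 0.00112). The exact permutation test gave p = 0.0079, the smallest possible. *Hsph1* was called in all 17 other settings tried, each library left out in turn included, with log2 fold changes from 0.73 to 0.91. None of its 75-base windows occurs elsewhere in the genome, and on leaving out wildtype replicate 5 the log2 fold change was 0.80 (adjusted p = 0.00048). Of the genes of the HSP70 machine, *Hsph1* rose, *Hspa8* had a smaller difference that missed the threshold, and *Hspa1a*, *Hspa1b* and *Dnajb1* were not called. The *Hsph1* to *Hspa8* ratio of FPKM within a library was 0.0750 ± 0.0140 (SD, n = 4) in the null and 0.0582 ± 0.0115 (SD, n = 5) in the wildtype lens, and these overlapped.

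The HSP90 genes encode the chaperones that mature kinases and steroid receptors. *Hsp90aa1* (ENSMUSG00000021270, chr12:110656842-110669166, minus strand, 11 exons) encodes the inducible HSP90α. It stood at 1334.5, 1339, 1405 and 1627 CPM in the null and at 1144, 1017, 1038, 1048 and 817 CPM in the wildtype libraries, without overlap. The means were 1426 ± 137 (SD, n = 4) and 1013 ± 120.01 (SD, n = 5), a 1.41-fold rise with a 95% interval of 1.18- to 1.69-fold (log2 fold change 0.49, SE 0.12, edgeR adjusted p = 0.0285). The exact permutation test gave p = 0.0079, the smallest possible. The size of the difference held in every setting, from 0.42 to 0.62 on the log2 scale, while the call did not. The settings that lost it included edgeR's exactTest (adjusted p = 0.0596) and the fits without null replicate 2 (0.52, adjusted p = 0.0615), null replicate 3 (0.50, 0.0704), null replicate 4 (0.42, 0.0587), wildtype replicate 2 (0.49, 0.0704), wildtype replicate 3 (0.50, 0.0682) or wildtype replicate 4 (0.51, 0.0641). Without wildtype replicate 5 it stayed at 0.43 (adjusted p = 0.0202). Processed copies of *Hsp90aa1*, *Gm12346* inside *Ssh2* and *Gm5844*, were at 4.85 and 1.54 CPM in the wildtype lens, and adding them, which was decided after the values had been seen, left the log2 fold change at 0.49 (adjusted p = 0.0277).

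*Hsp90ab1* (ENSMUSG00000023944, chr17:45878552-45891949, minus strand, 11 exons) encodes the constitutive HSP90β and had the highest level of the 10 genes. It stood at 4199, 4663.5, 4871 and 5369 CPM in the null and at 5283, 5057, 5195, 5091 and 3767 CPM in the wildtype libraries. The groups overlapped, and wildtype replicate 5 was the lowest of all. The means were 4776 ± 485 (SD, n = 4) and 4879 ± 628 (SD, n = 5), with a log2 fold change of -0.03 (SE 0.13, edgeR adjusted p = 0.934). The 95% interval of the fold change was 0.812 to 1.18, which contains no difference and does not reach the 1.41-fold fitted for *Hsp90aa1*. *Hsp90ab1* overlaps *Slc35b2* on the opposite strand.

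Since both HSP90 genes were read in the same library, their ratio does not depend on how libraries were scaled. Counts were divided by the summed exon length (FPKM) for this. The *Hsp90aa1* to *Hsp90ab1* ratio was 0.373, 0.337, 0.3385 and 0.355 in null replicates 1 to 4 and 0.254, 0.236, 0.234, 0.242 and 0.254 in wildtype replicates 1 to 5. Wildtype replicate 5, which was low for both genes, lay among the other wildtype libraries here. The means were 0.351 ± 0.0169 (SD, n = 4) and 0.244 ± 0.00967 (SD, n = 5), with no overlap. The *Hspa8* to *Hsp90ab1* ratio was 0.249 ± 0.0149 (SD, n = 4) in the null, from 0.240 to 0.271, and 0.182 ± 0.00364 (SD, n = 5) in the wildtype lens, from 0.177 to 0.185. The *Hspa8* to *Hsp90aa1* ratio was 0.711 ± 0.0423 and 0.747 ± 0.0257, and its values overlapped. In each library *Hspa8* and *Hsp90aa1* thus stood higher relative to *Hsp90ab1* in the null than in the wildtype lens, while their values relative to each other overlapped. No test was made of these ratios, which were formed after the single genes were known.

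**Figure D3:**
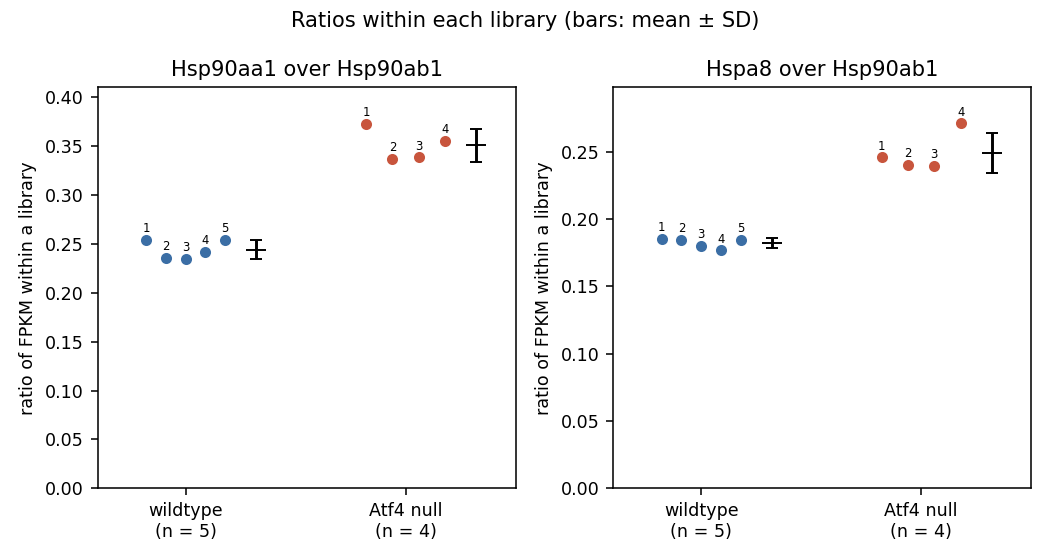
Ratio of FPKM within each library for *Hsp90aa1* over *Hsp90ab1* (left) and *Hspa8* over *Hsp90ab1* (right), with vertical axes from 0, replicate numbers beside the points and bars for mean and SD. The 4 *Atf4* null points lie above the 5 wildtype points in both panels (0.337 to 0.373 against 0.234 to 0.254 on the left).

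The small heat shock proteins bind unfolding proteins without using ATP and hold them for HSP70. *Hspb1* (ENSMUSG00000004951, chr5:135916760-135918417, plus strand, 3 exons) encodes HSP27, called HSP25 in the mouse, which also acts on actin filaments. It had 25, 28, 0 and 6 counts in the null and 43, 88, 135, 29 and 210 counts in the wildtype libraries. In CPM these were 2.49, 3.36, 0 and 0.874 against 5.52, 10.9, 16.7, 3.67 and 22.5. A count of 0 in null replicate 3 allows up to 0.329 CPM. Every null library was below every wildtype library, although null replicate 2 and wildtype replicate 4 were nearly level. The means were 1.68 ± 1.52 (SD, n = 4) and 11.8 ± 7.82 (SD, n = 5), with a log2 fold change of -2.80 (SE 0.80, 95% interval -4.52 to -1.08). This was the largest fitted difference of the 10 genes, 6.96-fold lower, but the wildtype libraries alone spanned from 3.67 to 22.5 CPM.

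The edgeR test of *Hspb1* gave p = 0.00368 and an adjusted p of 0.0582, above the threshold, and the exact two-sided permutation test gave p = 0.0159. *Hspb1* was called lower by DESeq2 (-2.82, adjusted p = 0.00102), by edgeR's exactTest (-2.80, adjusted p = 0.0111) and with no filter on low counts (-2.80, adjusted p = 0.0042). The highest wildtype value was that of replicate 5, the library with 2.52% of counts on muscle and mesenchyme genes. Without it the log2 fold change was -2.43 (adjusted p = 0.0633). Of the 75-base windows of *Hspb1*, 56.8% occur in the processed pseudogene *Hsp25-ps1*, which had 7 counts in all 9 libraries together.

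*Hspb8* (ENSMUSG00000041548, chr5:116546409-116561084, minus strand, 3 exons) encodes HSP22, which works with BAG3 to route misfolded proteins to autophagy. It stood at 10.3, 10.9, 5.26 and 9.61 CPM in the null and at 3.34, 6.29, 6.18, 2.03 and 9.64 CPM in the wildtype libraries. The ranges overlapped from 5.26 CPM, in null replicate 3, to 9.64 CPM, in wildtype replicate 5. The means were 9.01 ± 2.56 (SD, n = 4) and 5.49 ± 2.96 (SD, n = 5), with a log2 fold change of 0.71 (SE 0.44, 95% interval -0.23 to 1.65, edgeR adjusted p = 0.416). Without wildtype replicate 5 it was 1.01 (adjusted p = 0.184). The coding sequences of *Hspb1* and *Hspb8* shared 34.4% of aligned residues, and their fitted differences had opposite signs.

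**Figure D4:**
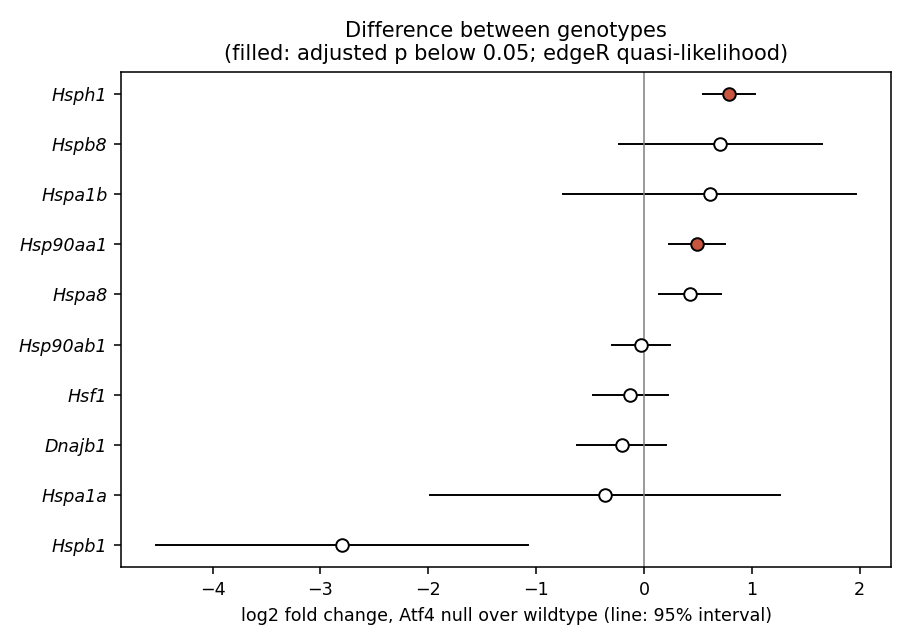
Log2 fold change of each of the 10 genes, *Atf4* null over wildtype (horizontal axis, lines for the 95% interval, grey line at 0), with genes at an adjusted p below 0.05 in filled red. *Hsph1* (0.79) and *Hsp90aa1* (0.49) are filled, and *Hspb1* (-2.80), *Hspa1a* and *Hspa1b* have the widest intervals.

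Levels of different genes were compared as FPKM in the wildtype lens, by the summed exon length. *Hsp90ab1* was the highest at 903 ± 116 (SD, n = 5), followed by *Hsp90aa1* at 220.05 ± 26.1 and *Hspa8* at 164 ± 20.6. The ranges of the latter, 177 to 249 and 129 to 181, touched, and by the length of the canonical transcript *Hspa8* (596) stood above *Hsp90aa1* (287), so the order of these genes depends on the length used. Then came *Dnajb1* at 26.6 ± 5.52, *Hspb1* at 11.3 ± 7.49 and *Hsph1* at 9.41 ± 1.01. The *Hspb1* values, from 3.52 to 21.5, overlapped those of both neighbours. *Hsf1* followed at 4.30 ± 0.768, *Hspb8* at 2.44 ± 1.31, *Hspa1b* at 1.20 ± 1.00 and *Hspa1a* at 0.605 ± 0.387, and each of these overlapped the next in its range. The constitutive chaperones and HSP90α were thus far more abundant as mRNA than the strictly inducible HSP70 genes. In the null lens the order from the top was again *Hsp90ab1* (884), *Hsp90aa1* (309.9) and *Hspa8* (221). *Hsph1* was at 16.2 ± 1.12 and *Hspb1* at 1.61 ± 1.46 there, and by the canonical transcript *Hsph1* (16.9) stood above *Hspb1* (12.9) in the wildtype lens as well.

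The other chaperone genes were examined in 8 lists of 74 symbols, of which 73 were found and 68 had enough counts to be tested. *Dnajc2* and *Cct4* were called higher and *Hikeshi* and *Dnaja1* lower, while 64 were not called, beside the 2.23% and 3.67% of all genes tested. The median log2 fold change of the 68 was 0.02. For 7 of them the genotypes did not overlap, against 10.2% of all genes tested. The 4 genes called belong to 3 of the lists. Of the 68, 13 had an unadjusted p below 0.05, and the counts at that threshold given below for single lists stand beside the 19.6% of all genes tested.

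Among the HSF family and its regulators, 4 of 7 genes were tested, with a median log2 fold change of -0.28. *Hikeshi*, which carries HSP70 into the nucleus, stood at 12.2, 9.60, 8.55 and 8.74 CPM in the null and at 20.4, 15.3, 20.5, 19.4 and 16.9 CPM in the wildtype libraries. It fell by 0.92 on the log2 scale (SE 0.22, edgeR adjusted p = 0.0246), and it was called in 9 of the 17 other settings, all with a log2 fold change between -1.04 and -0.78. The fits that lost the call included those without null replicate 2 (-0.91, adjusted p = 0.0658), null replicate 3 (-0.86, 0.0726), wildtype replicate 1 (-0.88, 0.0599), wildtype replicate 3 (-0.88, 0.0625) or wildtype replicate 4 (-0.90, 0.0621), with library sizes in place of TMM factors (-0.78, 0.0586) and with no filter on low counts (-0.92, 0.0511). *Hsf4*, the HSF of lens fiber cells, was at 131 ± 56.4 (SD, n = 4) in the null and 172 ± 40.5 CPM (SD, n = 5) in the wildtype lens (log2 fold change -0.39, adjusted p = 0.442). *Hsf2* was at 43.0 ± 12.1 and 32.4 ± 5.66 CPM (0.41, adjusted p = 0.309). *Hsf3*, *Hsf5* and *Hsf2bp* had at most 0, 14 and 9 counts in any library.

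The J-domain proteins choose the clients of HSP70. Of 14 tested, *Dnaja1*, an abundant partner of HSP70 in the cytosol, stood at 151, 169, 181 and 163 CPM in the null and at 249, 266, 247, 256 and 197 CPM in the wildtype libraries, without overlap. It fell by 0.55 on the log2 scale (SE 0.12, edgeR adjusted p = 0.0129). *Dnajc2*, which works with HSP70 at the ribosome exit, stood at 123, 119.7, 148 and 177 CPM in the null and at 89.6, 94.2, 87.1, 97.3 and 86.8 CPM in the wildtype libraries. It rose by 0.64 on the log2 scale (SE 0.13, edgeR adjusted p = 0.00867). *Dnaja1* and *Dnajc2* were called in all 17 other settings. The median of the list was -0.08, and *Dnajc21*, a factor of ribosome assembly, had a log2 fold change of 0.39 (adjusted p = 0.187). The J-domain genes called therefore differed in opposite directions, with *Dnajb1* overlapping between genotypes.

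The relatives of HSPA8 and HSPH1 in the HSP70 and HSP110 family gave 7 tested genes of 8, with a median of 0.19. Of the 7, 0 were called by edgeR or DESeq2 and 1 had an unadjusted p below 0.05 (all genes, 19.6%). *Hspa4l*, another HSP110 gene, stood at 91.7 ± 17.5 (SD, n = 4) and 69.6 ± 4.27 CPM (SD, n = 5) without overlap, with a log2 fold change of 0.40 (edgeR adjusted p = 0.109), about the size fitted for *Hspa8*. *Hspa12a* (0.80, adjusted p = 0.267) and *Hspa13* (0.23, adjusted p = 0.513) overlapped. Of the 9 HSP70 co-chaperones 0 were called by edgeR or DESeq2 and 1 had an unadjusted p below 0.05. This was *Bag3*, the partner of HSPB8, which was at 28.2 ± 6.0 in the null and 19.2 ± 5.17 CPM in the wildtype lens (0.55, adjusted p = 0.212). *Bag5* (0.43, adjusted p = 0.269) and *St13* (-0.20, adjusted p = 0.484) were not called either. In 1 of the 17 other settings, edgeR without null replicate 1, *Bag5* was called higher (0.63, adjusted p = 0.030).

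Of the 14 HSP90 co-chaperones 0 were called by edgeR, 3 had an unadjusted p below 0.05 and DESeq2 called 1, *Nudc*, beside 19.6% and 9.37% of all genes tested. The list median was 0.01. *Nudc*, which stabilises clients with HSP90, was at 240.5 ± 34.2 (SD, n = 4) and 181 ± 19.6 CPM (SD, n = 5), with a log2 fold change of 0.41 (edgeR adjusted p = 0.0791). On leaving out 1 library, edgeR called *Nudc* only without null replicate 1 (adjusted p = 0.0283). *Ptges3*, which encodes p23, had 0.33 (adjusted p = 0.12) and *Chordc1* had 0.38 (adjusted p = 0.134), the latter without overlap between the genotypes. With library sizes in place of TMM factors, which moved the median of all genes to 0.125, *Nudc* (0.53), *Ptges3* (0.45) and *Chordc1* (0.52) were called.

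The other small heat shock proteins gave 6 tested genes, 5 of them with a negative log2 fold change, and a median of -0.44. Of the 6, 0 were called and 1 had an unadjusted p below 0.05 (all genes, 19.6%). *Cryab*, αB-crystallin, was at 1169 ± 283 (SD, n = 4) in the null and 1680.5 ± 301 CPM (SD, n = 5) in the wildtype lens (log2 fold change -0.52, edgeR adjusted p = 0.125), and it was called lower by DESeq2 (-0.52, adjusted p = 0.0368) and without wildtype replicate 5 (-0.62, adjusted p = 0.0226). *Cryaa*, αA-crystallin and among the most abundant lens mRNAs, was at 37845 ± 13596 and 48391 ± 10215 CPM (-0.35, adjusted p = 0.432). For both, null replicate 1 was the lowest library. *Hspb3*, a muscle small heat shock protein, was at 2.82 ± 1.88 and 5.68 ± 2.99 CPM (-1.0, adjusted p = 0.36). Its highest value, 9.53 CPM, was that of wildtype replicate 5, the library that stood apart in muscle and mesenchyme genes. Of the TRiC chaperonin, the cylinder of 8 different subunits that folds actin and tubulin, *Cct4* rose by 0.45 on the log2 scale (SE 0.10, edgeR adjusted p = 0.0193), from 94.9 ± 6.53 (SD, n = 5) to 130 ± 8.74 CPM (SD, n = 4), while the other 7 subunits were not called and the median was 0.10. The fits that lost this call included those without null replicate 3 (0.42, adjusted p = 0.0694) or wildtype replicate 3 (0.44, adjusted p = 0.0544). Of the 6 mitochondrial chaperones 0 were called by edgeR or DESeq2, with 1 at an unadjusted p below 0.05 (all genes, 19.6%). *Hspd1* and *Hspe1*, the HSP60 and HSP10 subunits, had log2 fold changes of -0.26 and 0.27 (adjusted p = 0.328 and 0.329), and *Dnaja3* had 0.41 (adjusted p = 0.24).

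**Figure D5:**
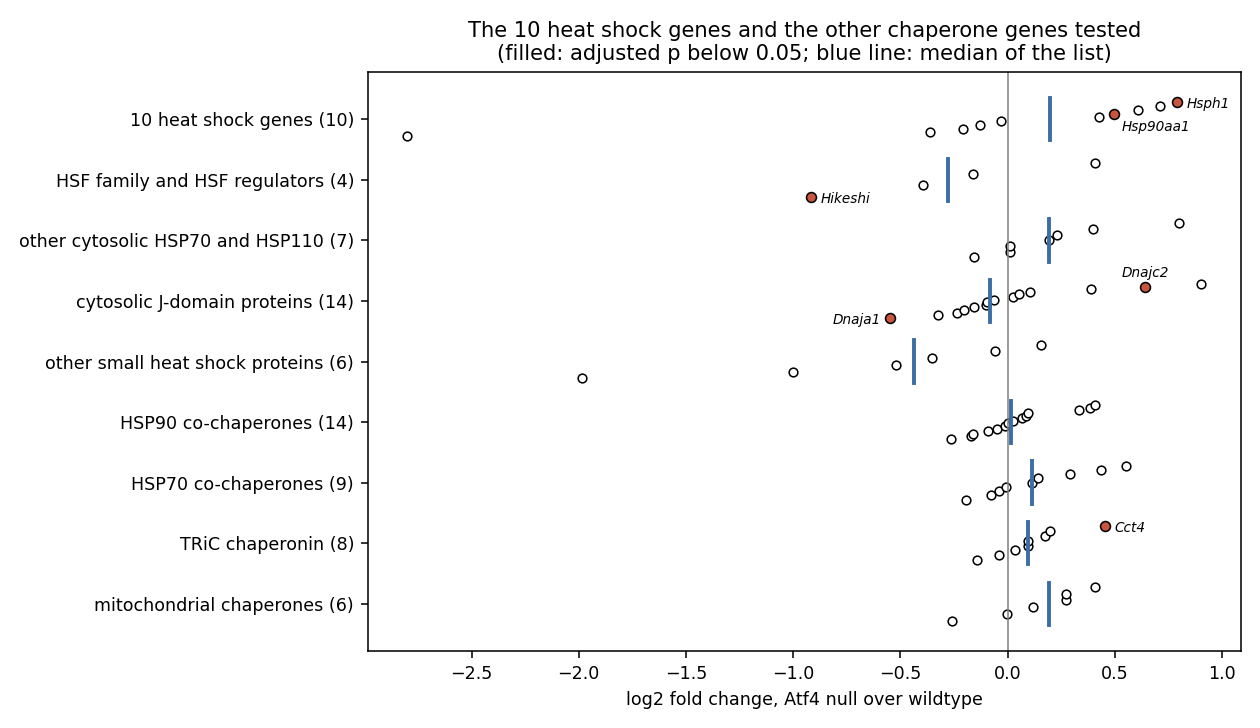
Log2 fold change, *Atf4* null over wildtype (horizontal axis), of the 10 heat shock genes and of the tested genes of 8 chaperone lists (1 row per list, number tested in brackets), with genes at an adjusted p below 0.05 filled and named and blue lines at list medians. In the lists other than the top row, 4 genes are filled, *Dnajc2* and *Cct4* to the right of 0 and *Hikeshi* and *Dnaja1* to the left.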

How the data were processed

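RNA from 1 pair of lenses per E16.5 embryo was made into libraries with a stranded total RNA kit for small inputs and sequenced on a NovaSeq. The labels and the study's methods name different RNA extraction kits. The authors trimmed reads with Trim Galore, removed ribosomal RNA reads with HISAT2, aligned what remained to GRCm39 and gave each read to an Ensembl gene using HTSeq. The deposited values are raw counts per gene without normalization. Reads with more than 1 alignment or gene were not counted, and HTSeq's 5 summary entries, 44.6% to 47.7% of each file, were left out. Each library was run on 4 lanes, and whether the counts cover all of them is not given in the sources used here. Each wildtype title names another wildtype library than its counts do, so wildtype replicate numbers are uncertain.

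Gene IDs were joined to GENCODE vM39 (GRCm39), which matched 54749 of 55416. All 9 libraries, of 7440807 to 8906996 gene counts, were fitted by genotype with edgeR 4.0.16 in R 4.3.3 (filterByExpr, TMM factors, glmQLFit, glmQLFTest, no covariate), with Benjamini-Hochberg adjustment over 14903 genes and a threshold of 0.05. Intervals are 95% intervals of that fit, and the floor for a count of 0 is 3 counts; both cover these libraries only, the floor counting error alone. Single genes also had an exact two-sided permutation test of genotype labels on mean log2 CPM with 0.25 added. FPKM divide CPM by the summed exon length or that of the canonical transcript. The alternatives were DESeq2 1.42.0, edgeR's exactTest (the study's test), a robust fit, library sizes or factors without crystallin genes in place of TMM, no filter or at least 10 counts in every library, the replicate number as a block, sums of near-identical genes, and each library left out in turn. Python 3.11.15 and Biopython 1.88 were used for sequences. The genes named are the 10, list genes that passed, and up to 3 per list with the smallest p. The 10 genes, the 8 chaperone lists and the 9 marker lists were chosen with earlier results of these data known. No separate protein sequences were used, and the residues compared were translated from the coding sequences.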

Additional observations from a re-analysis of the deposited data

Results flagged for a closer look

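The level of *Hspa8* in wildtype replicate 5, 1119 CPM, stood apart from the other wildtype libraries, with a gap to its nearest neighbour that was 0.723 of the whole range of the 5. The level of *Hsp90ab1* in the same library, 3767 CPM, stood apart in the same way, with a gap of 0.851 of the range. In both cases the library was the lowest, and it is the one with 2.52% of its counts on skeletal muscle and mesenchyme genes and the lowest lens fiber share among the wildtype libraries, 3.26%. Without it the log2 fold changes were 0.36 (edgeR adjusted p = 0.0791) for *Hspa8* and -0.11 (edgeR adjusted p = 0.624) for *Hsp90ab1*, neither of them called. Its part in these levels beyond that was not tested. Over the 30 groups of values examined in this way, chance flags about 1 in 20.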

How the results depend on the processing

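Across the alternatives, *Hsph1* was called in all 17 and *Hsp90aa1* in 10 of 18, always with the same direction. *Hsp90aa1* was not called with edgeR's exactTest (0.49, adjusted p = 0.0596). On leaving out 1 library at a time its log2 fold change ran from 0.42 to 0.54, with an adjusted p from 0.0202 to 0.0704 and a call in 3 of 9. *Hspa8* was called with library sizes (0.54), DESeq2 (0.43) and without null replicate 1, and ran from 0.31 to 0.50 on leaving out 1 library. *Hspb1* was called with DESeq2 (-2.82), exactTest (-2.80) and no filter (-2.80), ran from -3.37 to -2.39 on leaving out 1 library, and, like *Hspa1a* and *Hspa1b*, was not kept when 10 counts were required in every library. The sign turned for *Hsf1* with library sizes (0.00326), for *Hsp90ab1* with library sizes (0.0919) and without null replicate 1 (0.0315, range on leaving out 1 library -0.11 to 0.03), and for *Hspa1a* when added to *Hspa1b* (0.34), none of them called. The causes were not tested.

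The count of the 10 genes called higher was 1 with exactTest, 3 with library sizes and with DESeq2, and 1 to 3 on leaving out 1 library, and the count called lower was 1 with DESeq2, exactTest and no filter. In the chaperone lists, 5 were called higher with library sizes and 1 to 4 on leaving out 1 library, and 1 was called lower with library sizes and with no filter and 1 to 3 on leaving out 1 library. Over all genes, 790 were called higher with library sizes, 562 with DESeq2 and 172 to 488 on leaving out 1 library, and 835 lower with DESeq2 and 355 to 719 on leaving out 1 library. With library sizes the share of called genes that were higher was 64.3%, against 37.8%.

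Samples with the same replicate number did not deviate together (correlations -0.13, -0.02, -0.02 and 0.01 for numbers 1 to 4). Other combinations ran from -0.19 (null replicate 4 with wildtype replicate 5) to 0.22 (null replicate 1 with wildtype replicate 5). Since the wildtype numbers are uncertain, these values cannot tell whether any libraries belong together. With the replicate block, 852 genes were called, 280 of them higher, *Hsp90aa1* was at 0.42 (adjusted p = 0.0569), 1 of the 10 genes was called higher and 1 list gene higher. Of the list genes, *Hikeshi* (-0.96, adjusted p = 0.0591) and *Cct4* (0.42, adjusted p = 0.0773) were not called with the block, and *Cryab* was (-0.66, adjusted p = 0.0286). Counts of about 3 to 60 per library limit *Hspa1a* and *Hspa1b*, and of 0 to 210 *Hspb1*.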
